A study of Mus musculus with 2 samples.

Results

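A set of 7 microRNA probes, for microRNAs known to rise in wounded epidermis, was read in mouse skin and mouse oral mucosa before any wounding. They were picked by name among the 1892 mature mouse microRNAs on the arrays, for their known part in wounds: mmu-miR-31-5p, mmu-miR-31-3p, mmu-miR-21a-5p, mmu-miR-21a-3p, mmu-miR-132-3p, mmu-miR-132-5p and mmu-miR-210-3p. The 7 come from 4 precursors, and each was printed on 2 repeat spots of each array. One single-colour (Cy5) array was hybridised per tissue, each with 2 µg of total RNA pooled from 3 animals. The methods describe female Balb/c mice of 8 to 10 weeks, with skin and oral mucosa matched by animal. Neither tissue was wounded or treated, so both are baseline samples, and the site on the body from which each was taken is not given for them. The title of the series and the paper speak of epithelium, while the RNA is described as coming from skin and mucosa specimens.

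A microRNA is cut from a hairpin precursor, and either arm of the hairpin, named 5p or 3p, can be loaded into Argonaute to repress mRNAs that pair with its seed, the bases near the 5′ end. MiR-31 is raised in keratinocytes at the wound edge, where it favours proliferation and migration. MiR-21 is raised in many wounds and squamous tumours and promotes keratinocyte migration. MiR-132 is raised in keratinocytes during the inflammatory phase of repair and is linked to the passage from inflammation to proliferation. MiR-210 is the microRNA most closely tied to hypoxia, being transcribed under HIF-1, and is raised in poorly perfused wounds. The comparison addresses whether these wound-response microRNAs already differ between skin and the faster-healing oral mucosa before any injury.

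The mature sequences show which signals could be shared between probes, and the seed (bases 2 to 8) is in capitals. They were read from the deposited files, and all 7 were identical to the RefSeq entries of GRCm38.p6.
mmu-miR-31-5p: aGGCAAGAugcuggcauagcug
mmu-miR-31-3p: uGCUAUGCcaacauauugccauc
mmu-miR-21a-5p: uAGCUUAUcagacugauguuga
mmu-miR-21a-3p: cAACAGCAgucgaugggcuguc
mmu-miR-132-3p: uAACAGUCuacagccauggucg
mmu-miR-132-5p: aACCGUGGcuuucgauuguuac
mmu-miR-210-3p: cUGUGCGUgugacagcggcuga

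No 2 of the 7 shared a seed. Among the other probes on the array, the seed of miR-21a-5p was found in 2, miR-21c and miR-590-5p, and that of miR-132-3p in 1, miR-212-3p. The seeds of the remaining 5 members were found in 0 other probes. Among the relatives of the members, 3 probes are close enough in sequence to be set beside the members, with their seeds in capitals.
mmu-miR-21b: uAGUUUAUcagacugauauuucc
mmu-miR-21c: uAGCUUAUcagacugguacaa
mmu-miR-212-3p: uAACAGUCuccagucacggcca

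With positions counted from 1 at the 5′ end and no gap allowed, miR-21b differs from miR-21a-5p by C4U, G18A, G21U and A22C. MiR-21c differs from miR-21a-5p by A16G, G18A, U19C, U20A and G21A. MiR-212-3p differs from miR-132-3p by A10C, C14U, U17C, U20C and G22A. None of these 3 relatives was above the detection limit on either array.

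The precursors show where the arms lie, and the 2 mature arms of each hairpin are in capitals. The hairpin of miR-31 lies at chr4:88910557-88910662 on the minus strand of GRCm38.p6, within the span of the long noncoding RNA gene Gm49890. The hairpin of miR-21a lies at chr11:86584067-86584158 on the minus strand, within the span of the protein-coding gene Vmp1. The hairpin of miR-132 lies at chr11:75173682-75173747 on the plus strand, 204 bases from that of miR-212, and no other gene spans it. The hairpin of miR-210 lies at chr7:141221384-141221493 on the minus strand, with no gene spanning it. The annotation used gives gene spans without exons, so a position in an exon or intron is not stated.
Mir31: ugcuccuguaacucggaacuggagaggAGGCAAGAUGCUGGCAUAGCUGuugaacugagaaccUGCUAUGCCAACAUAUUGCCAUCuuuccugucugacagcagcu
Mir21a: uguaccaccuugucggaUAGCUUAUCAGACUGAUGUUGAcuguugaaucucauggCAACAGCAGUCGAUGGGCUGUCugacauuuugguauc
Mir132: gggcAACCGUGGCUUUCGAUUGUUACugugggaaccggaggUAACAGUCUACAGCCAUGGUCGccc
Mir210: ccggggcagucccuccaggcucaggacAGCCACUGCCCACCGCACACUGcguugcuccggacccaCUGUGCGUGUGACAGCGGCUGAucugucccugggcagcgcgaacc

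Signals are the median brightness of a spot in scanner units, as the authors deposited them, with no background taken off. The detection limit was the average of the 16 empty spots plus 3 SD, and the average of both repeat spots had to exceed it. It came to 59.9 in skin and 71.8 in oral mucosa. Differences are oral mucosa minus skin on a log2 scale after Variance Stabilizing Normalization (VSN), which fits each array its own offset and scaling factor. Relative to skin the fitted factor for oral mucosa was 1.37, and for the 4 members detected on both arrays the ratio of deposited signals was larger than the fold after VSN. The SD beside a difference comes from the repeat spots of both arrays and covers technical error only. With 1 pooled array per tissue there was no replicate of the tissues and no test between them, so a microRNA was said to pass the size rule when its difference was at least 1, a 2-fold change. Probes detected on at least 1 array numbered 562, of which 394 were detected on both.

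Of the 7 probes, 4 were detected on both arrays, 1 on the skin array only and 2 on neither. Both arms of miR-31 passed the size rule toward oral mucosa, and 0 members passed it toward skin. By the same rule 13.7% of the 562 detected probes were higher in oral mucosa and 14.8% were lower. The 2 calls come from 1 precursor and are not independent of each other. In RNA from tissue specimens, fewer cells that express a microRNA and less of it per cell cannot be told apart.

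MiR-31-5p, the arm of miR-31 usually studied as the guide strand, read 1198 and 1103 on the 2 skin spots and 4031 and 3558 on the 2 oral mucosa spots. Every oral mucosa spot was thus brighter than every skin spot, and both arrays were far above their limits, 19.2 times for skin and 52.8 times for oral mucosa. The deposited signals stood in a ratio of 3.30, of which VSN left 2.45-fold, a log2 difference of 1.30 (SD 0.16). Among the 394 probes detected on both arrays, 23 had a larger difference toward oral mucosa.

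MiR-31-3p, from the opposite arm, read 261 and 205 on the skin spots and 868 and 644 on the oral mucosa spots. Again the spots of the 2 tissues did not overlap. The deposited ratio was 3.25 and the VSN log2 difference 1.41, or 2.65-fold. Its repeat spots lay further apart than those of the 5p arm, which gave an SD of 0.44, and 1 SD below the difference is 1.96-fold, just under the size rule. The 2 arms of miR-31 differed from each other by 0.11 in their log2 differences, less than the SD of 0.47 for that gap.

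**Figure D1:**
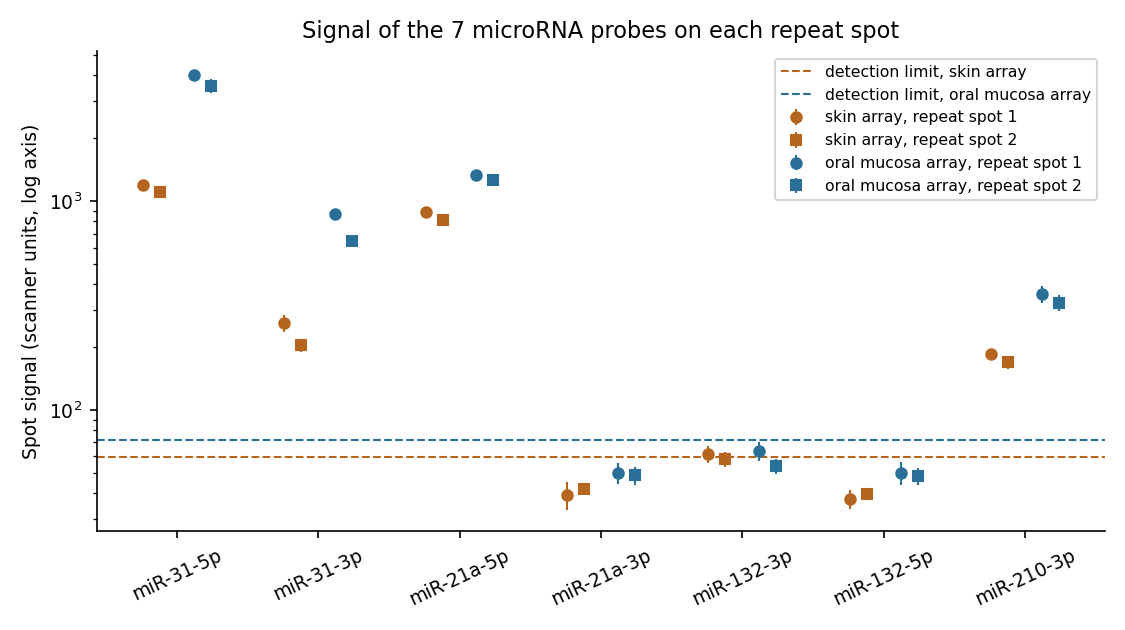
Signal of each repeat spot (circles, the first spot; squares, the second) for the 7 members on the skin array (brown) and the oral mucosa array (blue), in scanner units on a log axis. Bars are the SD of brightness within a spot and dashed lines the detection limits, 59.9 for skin and 71.8 for oral mucosa. MiR-31-5p, miR-31-3p, miR-21a-5p and miR-210-3p read brighter on oral mucosa spots, before normalization, while miR-21a-3p and miR-132-5p lie under both limits.

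Few microRNAs had both arms past the size rule. For 42 microRNAs both a 5p and a 3p arm of the same name were detected on both arrays, a count added after the values were seen. In 3 of the 42 both arms passed the size rule toward oral mucosa, namely miR-31, miR-195a and miR-199a, and in 0 both passed toward skin. In 11 a single arm passed, in 27 neither did, and in 1 the arms passed in opposite directions. The median gap between the differences of the 2 arms was 0.64, and 3 of the 42 had a smaller gap than miR-31. That rank is uncertain, since the miR-31 gap is smaller than its SD of 0.47. Taken as 3p minus 5p, the miR-31 gap ran from -0.20 to 0.11 under 8 other normalizations and sources of the values. Those of the 8 that differ from each other only by a shift common to all probes could not change it among themselves. Across these 42 the differences of the arms were weakly related (Pearson's r = 0.17, Spearman's rho = 0.20), a description across microRNAs of the same 2 arrays.

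**Figure D2:**
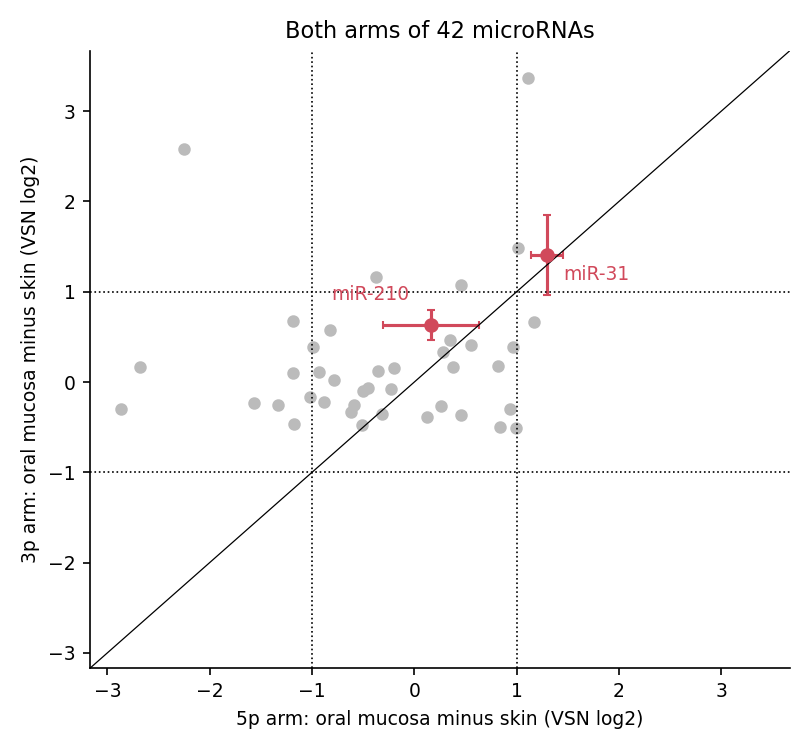
Difference of the 3p arm against that of the 5p arm, oral mucosa minus skin in VSN log2 units, for the 42 microRNAs with both arms detected on both arrays. The solid line is equality and the dotted lines are the 2-fold size rule. MiR-31 (red, bars are SDs from repeat spots) lies near the line at 1.30 and 1.41, and miR-210 lies at 0.16 and 0.63.

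MiR-21a-5p, the guide arm of miR-21, was far above the limit in both tissues, 14.2 times in skin and 18.1 times in oral mucosa, and did not pass the size rule. It read 886 and 816 on the skin spots and 1336 and 1265 on the oral mucosa spots. Every oral mucosa spot was brighter than every skin spot, a ratio of 1.53 in the deposited signals. After VSN the difference was 0.17 (SD 0.11), or 1.12-fold, which is under the size rule, and its normalized spots did not overlap between the tissues. The 3p arm miR-21a-3p was at the level of the empty spots, at 39.3 and 41.7 on the skin array and 49.9 and 48.7 on the oral mucosa array. No difference was formed for it. The near copies were also undetected, with means in skin and oral mucosa of 37.1 and 43.4 for miR-21b and of 38.7 and 42.2 for miR-21c. MiR-590-5p, which shares only the seed, read 39.4 and 48.1. Of these probes miR-21a-5p alone was detected.

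The difference of miR-31-5p exceeded that of miR-21a-5p by 1.13 (SD 0.19). This gap between the members ran from 1.11 to 1.30 under the 8 other normalizations, background corrections and sources of the values that were tried. Median scaling, percentile scaling of the deposited signals and no normalization differ from each other only by a shift common to all probes. Among themselves these settings could not change the gap, so their sameness is no test of it.

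MiR-210-3p, the hypoxia-linked arm, read 186 and 169 on the skin spots and 359 and 326 on the oral mucosa spots. The oral mucosa spots were all brighter, and the deposited ratio was 1.93. The VSN difference was 0.63 (SD 0.17), or 1.54-fold. It therefore lay between miR-21a-5p and miR-31-5p, 0.67 below the latter (SD 0.23), and under the size rule. The distance below miR-31-5p ran from 0.67 to 1.12 under the 8 alternatives, so VSN gave its low end. The other arm, miR-210-5p, was detected close to the limits at 76.0 and 70.6 in skin and 112 and 89.0 in oral mucosa. Its difference was 0.16 (SD 0.47) and its normalized spots overlapped between the tissues.

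MiR-132-3p was at the edge of what the skin array could show. Its skin spots read 61.8 and 58.1, a mean of 59.9 that made it the dimmest probe called detected on that array, with 1 of its spots under the limit. On the oral mucosa array the spots read 63.8 and 54.0, both under the limit of 71.8. Against the lowest detected oral mucosa signal the difference was -0.24 (SD 0.17 from the skin spots), a bound of 0.848 for oral mucosa over skin. The bound rests on the scaling. With no normalization or with 75th percentile scaling over probes detected on both arrays it would have turned toward oral mucosa and was set to 0. With a limit of 5 SD above the empty spots, or with both spots required to pass, miR-132-3p was not detected at all. Its first spot lies in column 2, near the edge of the array. The 5p arm miR-132-5p was detected on neither array, at 37.5 and 39.8 in skin and 50.1 and 48.1 in oral mucosa. The cluster partner miR-212, which is transcribed with miR-132 and whose 3p arm has the same seed, was also not detected. Its 3p arm averaged 44.1 in skin and 58.7 in oral mucosa, and its 5p arm 40.7 and 48.0. Of the 4 mature arms of this cluster, 0 were detected in oral mucosa and 1 in skin.

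In order of their differences toward oral mucosa, the detected members ran miR-31-3p, miR-31-5p, miR-210-3p, miR-21a-5p and miR-132-3p. Under VSN the 2 miR-31 arms were not separated beyond their SD. There miR-31-5p and miR-210-3p, and miR-210-3p and miR-21a-5p, differed by more than their combined SDs. MiR-210-3p and miR-21a-5p stood closer under quantile normalization (0.49 and 0.30) and with the processed values (0.46 and 0.25). Repeat spots of the 4 members detected on both arrays were all brighter in oral mucosa after normalization. The same held for 31.2% of the 394 probes detected on both arrays, and 36.5% had all skin spots brighter. For all 8 alternative normalizations and sources both arms of miR-31 stayed past the size rule, from 1.26 to 1.72 for the 5p arm and from 1.24 to 1.70 for the 3p arm. MiR-21a-5p ran from 0.15 to 0.61 and miR-210-3p from 0.46 to 0.95, always under the rule and always toward oral mucosa. Among the 8, normexp background correction before VSN nearly repeated VSN itself, with 1.30 and 1.41 for the miR-31 arms. It therefore adds little as an alternative.

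**Figure D3:**
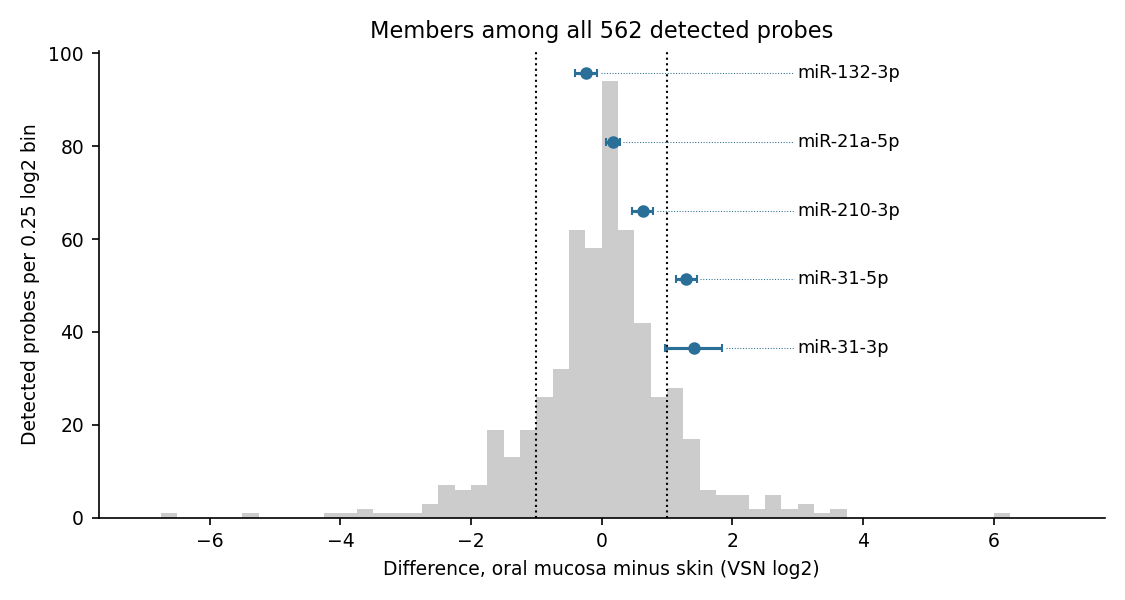
Histogram of the VSN log2 differences, oral mucosa minus skin, of the 562 probes detected on at least 1 array (grey), with the 5 detected members above it (points, with bars for the SD from repeat spots, at heights chosen for legibility). Dotted lines mark the 2-fold size rule. The arms of miR-31 lie past it at 1.30 and 1.41, and the other members lie inside it.

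The repeat spots of a probe sit at the same 2 positions on both arrays, so the difference can be taken position by position. This comparison was added after the values were seen. In all 4 members detected on both arrays the first spot was brighter than the second on each array. That was so for 61.4% of the 394 probes. The position-matched differences of miR-31-5p were 1.32 and 1.26, those of miR-31-3p 1.42 and 1.38, those of miR-21a-5p 0.15 and 0.19, and those of miR-210-3p 0.62 and 0.63. The gap between the positions was 0.06 or less in each of the 4, against a median of 0.25 over the 394 probes. The 394 include probes close to the detection limits, so their median is not one for probes as bright as the 4. The SDs given above, which do not match positions, are wider than the disagreement between positions for these 4 members. Both cover technical error only.

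The surroundings of the miR-31 spots showed no shift of the same size. Detected probes within 3 rows and 3 columns of the miR-31-5p spots had median differences of 0.28 (21 spots) and -0.02 (17 spots), and those around the miR-31-3p spots 0.10 (20 spots) and -0.02 (19 spots). Around the miR-21a-5p spots the medians were 0.10 and -0.15. Around miR-210-3p they were -0.03 and 0.62, the second as large as the difference of miR-210-3p itself, while its own positions gave 0.62 and 0.63. Around miR-132-3p they were 0.27 and 0.52.

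Other microRNAs linked to wound repair were read from a list of 34 that held none of the members. On this list 28 were detected on at least 1 array, 5 passed the size rule toward oral mucosa and 3 toward skin, and the median difference was -0.08, against 0.00 over all 562 detected probes. As a share of the 28 this is 17.9% and 10.7%, beside 13.7% and 14.8% of all detected probes. MiR-125b-5p is counted within the rule, but its skin spots read 9137 and 48.5, the second under the detection limit. Its difference of 0.35 (SD 6.87) therefore cannot be read. Of the 8 that passed, the probes of miR-10b-5p, miR-126a-3p, miR-146a-5p and miR-146b-5p have a spot in columns 1 and 2 at the edge. MiR-221-3p and miR-222-3p, cluster partners known from endothelial and epithelial proliferation, were higher in oral mucosa by 1.26 (SD 0.13) and 1.34 (SD 0.14). Both stayed past the size rule under the 8 alternatives, as the miR-31 arms did. MiR-126a-3p, an endothelial microRNA, was detected in oral mucosa only, with a difference of 1.84 (SD 0.70) from the lowest detected skin signal, and fell to 0.91 with median scaling. MiR-199a-5p, a mesenchymal microRNA, passed at 1.01 (SD 0.13), and gave 0.51 with the processed values of the deposit.

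Of the regulators of inflammatory signalling on that list, miR-146a-5p and miR-146b-5p moved apart. MiR-146a-5p was higher in oral mucosa by 1.05 (SD 0.19) and passed the rule in 2 of the 8 alternatives. MiR-146b-5p was lower, at -2.71 (SD 0.30) and passed in 8 of 8, with an oral mucosa signal just over the limit. Its size moved with the processing, to -1.22 with no normalization. MiR-155-5p and the myeloid miR-223-3p were detected on neither array. MiR-10b-5p, transcribed within a Hox gene cluster, was detected in skin only, and stood at -6.67 in oral mucosa (SD 0.11) from the lowest detected signal there. With no normalization that bound was -4.76. MiR-29c-3p, of a family that represses collagen genes, was lower, at -1.59, with an SD of 1.13 that exceeds its distance from the rule. Its relatives miR-29a-3p and miR-29b-3p gave 0.32 (SD 0.12) and -0.83 (SD 0.41). The keratinocyte microRNAs miR-203-3p, miR-205-5p and miR-200b-3p gave -0.48 (SD 0.37), -0.51 (SD 0.59) and -0.54 (SD 0.42), so that 0 of these 3 passed. Before scaling, the ratios of their deposited signals, oral mucosa over skin, were 0.99, 0.97 and 0.95. The miR-99 family (miR-99a-5p, miR-99b-5p and miR-100-5p) ran from -0.64 to 0.32, and the 4 detected members of the miR-17-92 cluster from -0.94 to 0.11.

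**Figure D4:**
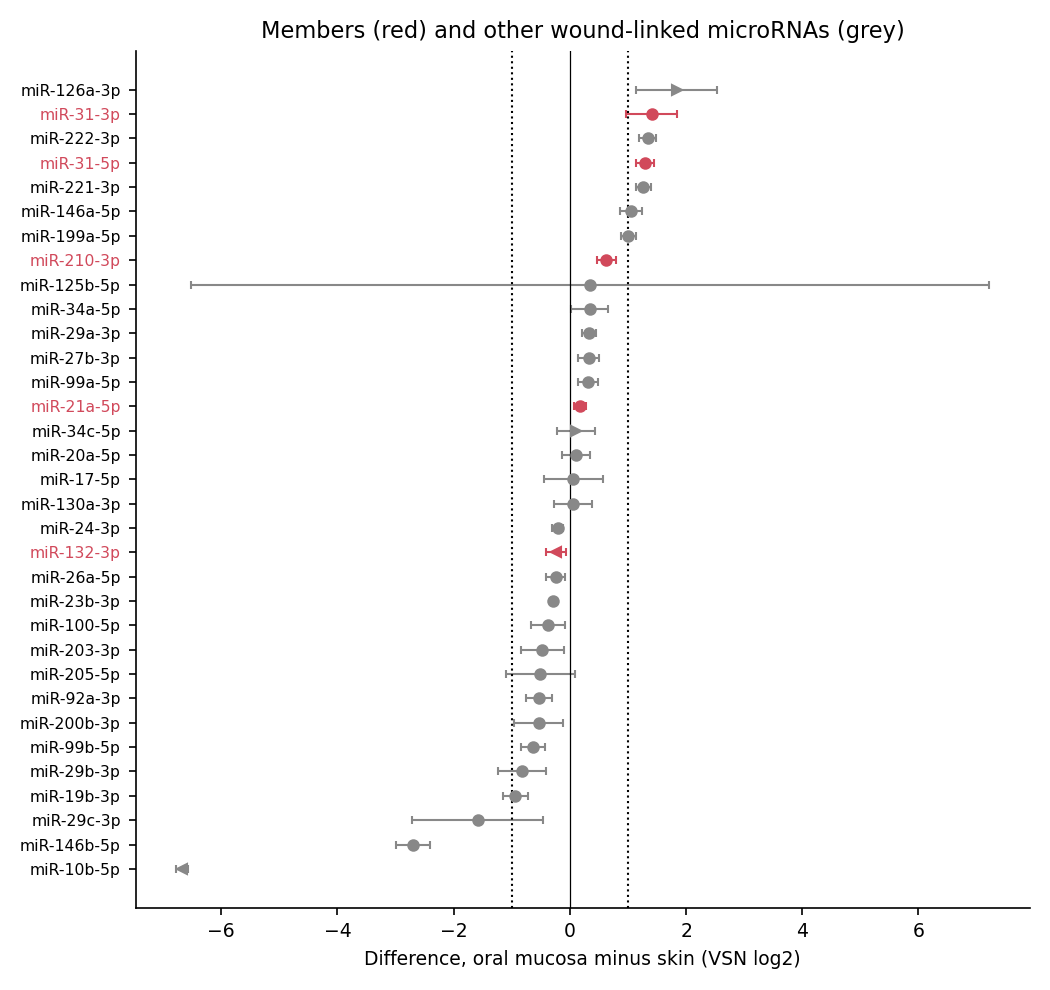
VSN log2 differences, oral mucosa minus skin, of the 5 detected members (red) and the 28 detected microRNAs of the wound-linked list (grey), with SDs from repeat spots. Circles were detected on both arrays, and triangles on skin only (pointing left) or oral mucosa only (pointing right), where the value is set against the lowest detected signal. Both arms of miR-31 lie beside miR-222-3p and miR-221-3p, while miR-21a-5p and miR-132-3p lie near 0. The widest bar is that of miR-125b-5p, whose skin spots read 9137 and 48.5.

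Markers of cell types were read beside these differences, and of the lists for other cell types the mesenchymal one passed the size rule in full under VSN. All 7 epithelial microRNAs of the marker list were detected on both arrays, with a median difference of -0.48 and 1 past the size rule in each direction. MiR-200c-3p was lower in oral mucosa, at -1.22 (SD 0.46). MiR-429-3p was higher, at 1.12, with an SD of 0.89 because its skin spots read 371 and 833. The signals of all 7 above the offset summed to 48959.8 in skin and 48454.5 in oral mucosa before scaling. The fitted factor of 1.37 would lower the oral mucosa sum. Most of either sum came from miR-203-3p and miR-205-5p, at 18697 and 22378 in skin and 18457 and 21626 in oral mucosa. The 5 mesenchymal microRNAs (miR-199a-3p, miR-199a-5p, miR-214-3p, miR-143-3p and miR-145a-5p) all passed the rule toward oral mucosa under VSN, by 1.01 to 2.17. Of all detected probes 13.7% did so. MiR-143-3p was detected in oral mucosa only, so its 2.02 is a bound, and miR-199a-5p passed in 3 of the 8 alternatives. The signals of these 5 above the offset summed to 327 in skin and 1639 in oral mucosa before scaling. The red cell microRNA miR-451a was higher by 6.21 (SD 0.37), with a skin signal only 1.12 times the limit. MiR-144-3p and miR-144-5p were detected on neither array. Of 2 endothelial microRNAs 1 was higher, and of 3 leukocyte microRNAs on the array 1, miR-150-5p, by 2.73 from the lowest detected skin signal. Of 4 skeletal muscle microRNAs 3 were detected and 0 passed, with a range from -0.19 to 0.71. The part of these other cell types in the miR-31 difference was not tested.

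**Figure D5:**
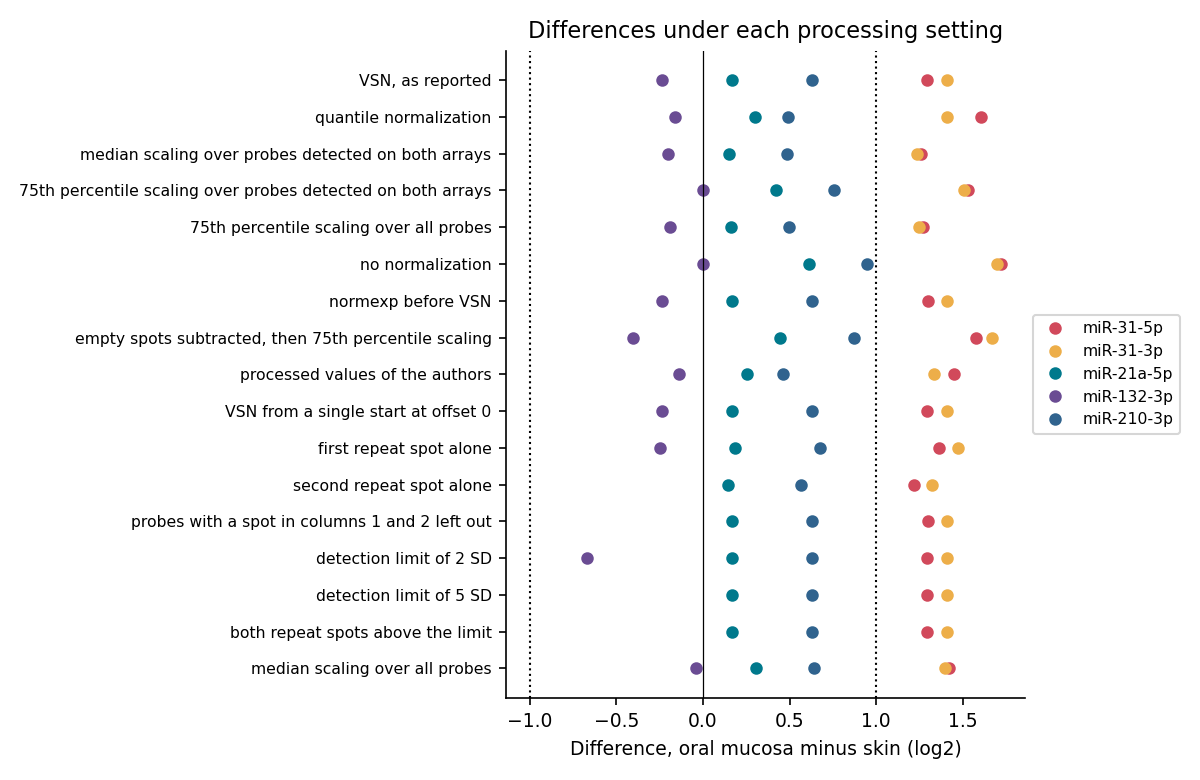
Difference of each detected member, oral mucosa minus skin in log2 units, under VSN as reported (top) and each other setting (rows). A missing point means that the member was not detected, or was left out, in that setting, and dotted lines mark the 2-fold size rule. MiR-31-5p and miR-31-3p lie past the rule in every row shown, between 1.22 and 1.72, and miR-21a-5p and miR-210-3p lie below it in every row.

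The probes with the most similar pair of VSN values were found by straight-line distance over the 2 arrays among those detected on both. For miR-31-5p these were miR-466f at 0.08, miR-30b-5p at 0.48 and miR-30c-5p at 0.49 log2 units. For miR-31-3p they were miR-297a-5p, miR-222-3p and miR-181a-5p, at 0.17 to 0.28. For miR-21a-5p they were miR-103-3p, miR-17-5p and miR-107-3p, at 0.04 to 0.09, with differences of 0.15, 0.06 and 0.13 between the tissues. For miR-210-3p they were miR-361-5p, miR-423-5p and miR-497-5p, at 0.18 to 0.22. Such likeness rests on 1 array per tissue.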

How the data were processed

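MicroRNA was measured in pooled RNA of unwounded skin and oral mucosa, 1 array each (MRA-1002 miRmouse v21). The authors deposited an intensity for each spot (median Cy5 brightness) and its spread within the spot, with neither background subtraction nor scaling. They also deposited 1 processed intensity per probe in whole numbers, whose method and scaling are not given in the sources used here. Its median was 4 in both columns.

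The 2 repeat spots of the 1892 probes were averaged and the 184 control spots left out. VSN (arsinh, maximum likelihood, least trimmed squares keeping 90% in each of 5 slices except the dimmest, 20 starts) was written in Python 3.11.15 (numpy 2.4.6, scipy 1.17.1, pandas 2.3.3) and tested on simulated data. Normexp used R 4.3.3 with limma 3.58.1. Where 1 array detected a probe, the undetected side took the lowest detected signal there, or its own if higher. The number of arrays limits the precision. No p-value is given, since each tissue has 1 array and its repeat spots share 1 pool of RNA. The CyberT test named in the methods was not run.

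Named are the 7 members, their relatives, wound-linked microRNAs past the size rule and the 3 nearest probes of each member detected on both arrays. List families, arm pairs and tissue markers are named besides. Members and lists were chosen with earlier results of these data known. Alternatives were other normalizations, background corrections, detection limits, thresholds, single spots and the processed values, log2(value + 50).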

Additional observations from a re-analysis of the deposited data

How the results depend on the processing

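No paired analysis was possible because only 1 array represents a tissue. Both miR-31 arms stayed past the size rule in all 16 settings that gave them a value at the 2-fold rule. The values ran from 1.22 to 1.72 for the 5p arm and from 1.24 to 1.70 for the 3p arm. Other detection limits and the demand that both spots pass could not change them while the arms stayed detected. Of the 4 members detected on both arrays, 0 reversed. MiR-132-3p could not reverse where it had a bound, since a bound that would change sign was set to 0. The number of members past the rule was 0 at a threshold of 4-fold. VSN from a single start at offset 0 gave the same fit, and normexp before VSN gave nearly the same values. The cause of each change was not tested, except where fewer or more probes enter or the threshold moves. All detected probes past the rule numbered 160, but 80 with quantile normalization, 87 with median scaling over probes detected on both arrays, 85 with 75th percentile scaling over those probes or over all probes, 102 with no normalization and 87 with the processed values. They numbered 104 with detection required on both arrays, 577 with no detection filter, 256 at 1.5-fold and 46 at 4-fold, and 85 with median scaling over all probes, which was chosen after seeing the data. Calls toward oral mucosa made up 48.1% of all calls under VSN, 63.5% under 75th percentile scaling over probes detected on both arrays and 78.4% without normalization, and the latter 2 moved the median of all detected probes to 0.20 and 0.40. Other wound-linked microRNAs higher in oral mucosa numbered 5, but 2 with quantile normalization, median scaling over probes detected on both arrays or 75th percentile scaling over all probes, and 3 with 75th percentile scaling over probes detected on both arrays, the processed values or median scaling over all probes. They numbered 3 without probes that have a spot in columns 1 and 2, and 0 at 4-fold. Those lower numbered 3, but 1 without the probes of columns 1 and 2 and 6 at 1.5-fold. Low signal limits miR-132-3p, which had a value in 12 settings with a detection limit and the 2-fold rule, from -0.67 to 0. With no detection filter it was -1.22, past the rule toward skin, so that 3 members passed, but its oral mucosa signal was then under the limit.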
